A study of Homo sapiens with 372 samples.

Results

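The genes described here encode enzymes that make and break down prostaglandins and the related leukotrienes, followed in single A2780 cells, an established human ovarian cancer cell line. They were chosen by name as 8 genes of this pathway: PTGS1, PTGS2, PTGES2, PTGES3, PTGR1, PTGR2, CBR1 and LTA4H. A search of the table by symbol matched 5 of the 8, PTGES2, PTGES3, PTGR1, PTGR2 and LTA4H, among 9664 genes. It matched neither PTGS1 nor PTGS2, the cyclooxygenases that celecoxib inhibits, nor CBR1, and these 3 genes were not analysed here. All 5 matched genes passed the detection filter (above 0 in more than 30% of cells in some condition), as did 9655 of the 9664 genes. The study had already filtered its genes by such a rule, so that passing it was largely fixed in advance.

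The cells came from 6 conditions of the same line: control cells with no drug named, 5 nM paclitaxel for 16 h or 48 h, 75 µM celecoxib for 2 h or 16 h, and the combination of 5 nM paclitaxel and 75 µM celecoxib for 16 h. Paclitaxel stabilizes microtubules and celecoxib is a cyclooxygenase inhibitor. Of 372 cells in the labels, 338 had values, namely 46 control cells, 56 and 53 cells with paclitaxel for 16 and 48 h, 63 and 61 cells with celecoxib for 2 and 16 h, and 59 cells with the combination. The labels name no replicate cultures, and each condition has a code of its own in the labels whose meaning is not given. A condition therefore counts as 1 sample, no test between conditions was made, and each SD is a spread over cells.

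The expression value was the E-value of the study, log2(N/10 + 1), where N is the TPM (a transcript level corrected for length and library size) after scaling to a spike-in RNA added to every well. This scale keeps differences in the total RNA of a cell. The median total of N over all genes differed from control by -0.99 and -0.64 on the log2 scale with paclitaxel for 16 and 48 h, by -0.76 and -1.52 with celecoxib for 2 and 16 h, and by 0.49 with the combination. Differences of the members are therefore also given with the same total set for every cell, called the same-total scale. A gene was counted as past the limit when the means of the treated and the control cells were more than log2 of 1.5 (0.585) apart. A fold computed from E-values understates the change of genes with low N. Read depth is unknown, and the genes detected per cell ran from 4746 to 8499, with condition medians from 6126 to 6630. No column was identical to another, and 1 well of the combination was noted as holding no cell. The labels number the libraries, and these numbers were taken here in blocks of 96, called index blocks, whose meaning the labels do not give. Most conditions fall in a single block, so that condition and block mostly cannot be told apart. Of 8 markers of epithelial and carcinoma cells, KRT18 and VIM were analysed, with mean E-values up to 1.11 for KRT18 and up to 3.70 for VIM. Of 8 markers of leukocytes, endothelium and fibroblasts, LYZ and COL3A1 were analysed, with mean E-values of at most 0.24 for LYZ and between 0.88 and 1.89 for COL3A1.

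Prostaglandins are made from arachidonic acid, which phospholipases release from membranes and cyclooxygenases turn into prostaglandin H2. Synthases then turn it into the single prostanoids, prostaglandin E2 among them, which signals growth and inflammation in many tumours. Breakdown begins with oxidation to a keto form by the dehydrogenase HPGD, and reductases such as PTGR1 and PTGR2 then saturate a double bond. Leukotrienes are made from the same acid by lipoxygenase, and LTA4H hydrolyses leukotriene A4 to the neutrophil attractant leukotriene B4.

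The 5 genes lie on 3 chromosomes in GENCODE version 44 of hg38. PTGES2 (ENSG00000148334.14) is at chr9:128120693-128128462 and PTGR1 (ENSG00000106853.18) at chr9:111549722-111599893, both on the minus strand. PTGES3 (ENSG00000110958.15, chr12:56663341-56688408) and LTA4H (ENSG00000111144.9, chr12:96000753-96043520) are on the minus strand of chromosome 12. PTGR2 (ENSG00000140043.11) is at chr14:73851831-73885726 on the plus strand. Smart-seq2 libraries do not mark strand, so reads of genes that overlap in their exons cannot be told apart there. PTGR1 shares 78 of its 3770 exonic bases with ZNF483 on the opposite strand, whose mean E-value differed from control by no more than -0.05 to 0.05 in any treatment. PTGR2 shares 989 of 6984 exonic bases with a protein-coding gene of the same strand (ENSG00000258653) and 1455 with an antisense lncRNA, and LTA4H shares 804 of 7405 with 1 antisense lncRNA and 121 with another. PTGES3 has 5 annotated pseudogenes named after it, PTGES3P1 to PTGES3P5, none of which was analysed here, so its level is uncertain by the reads they could share.

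RefSeq promoters (GRCh38.p14) were found for all 5 genes, and the 250 bases before the first listed start of each are shown so that the start regions of the 5 enzymes can be set side by side with their values. Capitals mark the GC box, GGGCGG on either strand. This motif was put in capitals after the counts were seen.
PTGES2: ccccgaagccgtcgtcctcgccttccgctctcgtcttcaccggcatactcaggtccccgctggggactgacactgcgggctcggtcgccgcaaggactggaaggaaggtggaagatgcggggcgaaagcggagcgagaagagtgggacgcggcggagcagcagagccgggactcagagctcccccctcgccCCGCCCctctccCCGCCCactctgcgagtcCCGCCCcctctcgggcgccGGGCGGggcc
PTGES3: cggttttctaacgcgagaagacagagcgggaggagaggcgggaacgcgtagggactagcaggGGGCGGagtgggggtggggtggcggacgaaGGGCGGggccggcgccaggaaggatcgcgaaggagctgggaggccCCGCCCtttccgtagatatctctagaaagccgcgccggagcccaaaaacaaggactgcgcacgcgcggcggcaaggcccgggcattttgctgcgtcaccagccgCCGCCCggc
PTGR1: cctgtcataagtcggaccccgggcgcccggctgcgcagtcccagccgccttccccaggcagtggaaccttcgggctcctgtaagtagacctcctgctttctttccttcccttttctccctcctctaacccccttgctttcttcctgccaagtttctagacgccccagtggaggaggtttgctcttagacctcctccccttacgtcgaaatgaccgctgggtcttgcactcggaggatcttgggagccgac
PTGR2: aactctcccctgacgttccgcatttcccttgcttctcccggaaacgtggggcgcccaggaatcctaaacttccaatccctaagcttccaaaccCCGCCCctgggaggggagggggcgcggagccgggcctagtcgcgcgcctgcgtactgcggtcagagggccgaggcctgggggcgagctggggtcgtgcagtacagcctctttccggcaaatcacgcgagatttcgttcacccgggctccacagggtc
LTA4H: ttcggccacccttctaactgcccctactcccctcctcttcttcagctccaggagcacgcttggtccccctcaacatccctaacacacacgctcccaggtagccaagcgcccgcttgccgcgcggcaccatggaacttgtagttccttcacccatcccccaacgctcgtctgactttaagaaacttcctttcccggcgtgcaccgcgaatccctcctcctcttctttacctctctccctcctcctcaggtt
These windows are at chr9:128128441-128128690 (minus strand), chr12:56688285-56688534 (minus), chr9:111599432-111599681 (minus), chr14:73851697-73851946 (plus) and chr12:96035588-96035837 (minus). The RefSeq starts differ from the ends of the GENCODE genes given above. The PTGR1 and LTA4H windows lie wholly inside the GENCODE spans of these genes, and the others overlap theirs in part. The GC box matched 4 times in the PTGES2 window and 4 times in that of PTGES3, once in that of PTGR2, and had 0 matches in those of PTGR1 and LTA4H. It is present in 42.6% of all 35116 promoters searched over the same 250 bases. GC content was 72.4% for PTGES2, 68.8% for PTGES3, 65.2% for PTGR2, 59.6% for PTGR1 and 58.8% for LTA4H. TGACNNNGC, the core letters bound by NRF2 (a regulator of antioxidant genes), matched once each in the PTGES2 and PTGES3 windows and had 0 matches in the other 3, against 10.9% of all promoters with a match. TGACG, a part of the cAMP response element, matched once each for PTGES3 and PTGR2 (21.2% of all promoters). CCAAT matched once for PTGR2 (32.0% of all promoters), and TATAAA had 0 matches in all 5 windows (10.7% of all promoters). Both strands were searched for each motif. A match is only a run of letters, and PTGES2 has 3 and PTGR2 has 2 listed promoters. The GC box had 1 match in each of the other PTGES2 promoters and 2 in the other PTGR2 promoter. TGACNNNGC had 0 matches in the second PTGES2 promoter and 1 in the third, so the counts depend on the promoter shown.

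With each drug alone, the synthases PTGES2 and PTGES3 were below control past the limit at both times, by -0.84 to -2.07 in mean E-value, in treatments where 25.7% to 43.9% of all genes were also below it. Of these 8 values, 2 stayed past the limit with the same total per cell, PTGES2 with paclitaxel for 16 h and PTGES3 with celecoxib for 16 h. PTGR1 with paclitaxel for 16 h (-0.62) and LTA4H with celecoxib for 16 h (-1.13) were below it too on the deposited scale. The reductases PTGR1 and PTGR2 and the hydrolase LTA4H were above control past the limit with the combination, by 1.80, 1.25 and 1.16, as were 30.4% of all genes. At equal totals, PTGR1 and PTGR2 stayed past the limit in the combination and PTGES2 was then below it. PTGR1 (0.65) and PTGR2 (0.64) were then also above it with paclitaxel for 48 h, as were 3.28% of all genes.

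PTGES2 encodes the membrane-associated prostaglandin E synthase 2. In control cells its E-value ran from 0 to 6.28 with a median of 4.56, and 45 of 46 cells were above 0. With paclitaxel the median was 3.51 at 16 h (range 0 to 5.45) and 3.96 at 48 h (0 to 5.94). With celecoxib it was 3.63 at 2 h (0 to 5.46) and 3.11 at 16 h (0 to 5.12). In the combination it was 4.56 (0 to 6.76), level with the control median, although 8 of 59 cells were at 0. The ranges of all 6 conditions overlapped. Only 3 of 61 cells with celecoxib for 16 h exceeded the control median, and 10 of 56 did with paclitaxel for 16 h. The mean was 4.49 ± 1.15 (SD over 46 cells) in control, and it differed by -1.65 and -0.84 with paclitaxel for 16 and 48 h, by -1.14 and -1.59 with celecoxib for 2 and 16 h, and by -0.39 with the combination. On the same-total scale these differences were -0.98, -0.26, -0.56, -0.39 and -0.84. PTGES2 was thus past the limit on both scales only with paclitaxel for 16 h. There its difference was lower than all but 1.17% of the genes on the deposited scale and all but 1.87% on the same-total scale. In the combination it was lower than all but 3.72% and 2.19% of the genes, within the limit on the first scale and past it on the second.

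PTGES3 encodes cytosolic prostaglandin E synthase, also known as p23, a co-chaperone of HSP90. It was the most abundant of the 5 in every condition, with a mean N of 906 in control against 276 for PTGES2, 117 for PTGR1, 70.6 for LTA4H and 19.2 for PTGR2. It was above 0 in all cells but 1, a cell with paclitaxel for 16 h. Its E-value in control cells had a median of 6.51 and a range of 3.57 to 7.60. The paclitaxel medians were 5.45 at 16 h (0 to 8.11) and 5.33 at 48 h (2.37 to 6.89), and the celecoxib medians were 5.42 at 2 h (3.30 to 7.61) and 4.25 at 16 h (2.28 to 5.93). The combination median was 6.64 (3.93 to 9.10). After 16 h of celecoxib 0 of 61 cells exceeded the control median, although the ranges still overlapped. From a control mean of 6.29 ± 0.92 (SD, 46 cells), PTGES3 differed by -0.96 and -1.06 with paclitaxel for 16 and 48 h, by -0.89 and -2.07 with celecoxib for 2 and 16 h, and by 0.36 with the combination. The same-total differences were -0.16, -0.44, -0.33, -0.72 and -0.33. Celecoxib for 16 h was the only treatment with PTGES3 past the limit on both scales, where 2.18% and 5.30% of all genes were lower than it.

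PTGR1 encodes prostaglandin reductase 1, which also reduces reactive alkenals and inactivates leukotriene B4. In control cells its E-value had a median of 3.45 (range 0 to 5.48), with 42 of 46 cells above 0. It was 2.86 (0 to 5.57) and 3.52 (0 to 5.62) with paclitaxel for 16 and 48 h, and 3.66 (0 to 6.46) and 2.83 (0 to 4.91) with celecoxib for 2 and 16 h. The combination stood highest with a median of 5.03 (0 to 8.20), and 51 of its 59 cells exceeded the control median. The mean in the combination was 4.96 ± 1.48 (SD, 59 cells) against 3.16 ± 1.40 (46 cells) in control, a difference of 1.80 or 3.47-fold. Differences in the other treatments were -0.62 and 0.19 with paclitaxel for 16 and 48 h and 0.13 and -0.49 with celecoxib for 2 and 16 h. Among all genes 0.663% had a larger difference than PTGR1 in the combination, and 0.694% did with the same total per cell, where the difference was 1.11 (2.16-fold) and 45 of 59 cells exceeded the control median. The other same-total differences were -0.04, 0.65, 0.58 and 0.56 in the order above. The study put PTGR1 and PTGR2 in a list of genes raised by paclitaxel that was chosen on these samples, so their direction at 48 h is not independent evidence.

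PTGR2 encodes prostaglandin reductase 2, which acts on the keto form of prostaglandin E2. It was the least abundant of the 5 and lay close to 0 in many cells, with a control median of 0.03 (range 0 to 3.47) and 23 of 46 cells at 0. Medians were 0.15 (0 to 4.50) with paclitaxel for 16 h, 0.11 (0 to 4.07) and 0.02 (0 to 3.02) with celecoxib for 2 and 16 h, 1.69 (0 to 4.40) with paclitaxel for 48 h and 2.63 (0 to 5.90) with the combination. These last 2 conditions had the highest medians, and in the other 4 most cells had an E-value of 1 or less. The share of cells above 0 did not set these 2 apart. It was 50.0% in control, and 73.2% and 67.9% with paclitaxel for 16 and 48 h. With celecoxib for 2 and 16 h it was 61.9% and 55.7%, and with the combination 71.2%. An E-value above 1 was seen in 18 of 46 control cells (39.1%), 17 of 56 and 30 of 53 cells with paclitaxel for 16 and 48 h (30.4% and 56.6%), 22 of 63 and 19 of 61 with celecoxib for 2 and 16 h (34.9% and 31.1%), and 37 of 59 with the combination (62.7%). From a control mean of 1.00 ± 1.24 (SD, 46 cells), PTGR2 differed by -0.03 and 0.40 with paclitaxel for 16 and 48 h, 0.03 and -0.28 with celecoxib for 2 and 16 h, and 1.25 with the combination. The same-total differences were 0.16, 0.64, 0.20, 0.15 and 0.75, so that PTGR2 was past the limit on both scales only in the combination.

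LTA4H encodes leukotriene A4 hydrolase, the enzyme of the leukotriene branch among the members. Control cells had a median of 2.57 (range 0 to 4.76), and 40 of 46 were above 0. The medians were 1.81 (0 to 4.71) and 2.80 (0 to 4.59) with paclitaxel for 16 and 48 h, 2.69 (0 to 5.66) and 1.68 (0 to 3.59) with celecoxib for 2 and 16 h, and 4.15 (0 to 5.87) with the combination. Celecoxib for 16 h was lowest, with 21 of 61 cells at 0, and in the combination 48 of 59 cells exceeded the control median. The mean was 2.45 ± 1.41 (SD, 46 cells) in control and differed by -0.58 and -0.08 with paclitaxel for 16 and 48 h, -0.02 and -1.13 with celecoxib for 2 and 16 h, and 1.16 with the combination. The value with paclitaxel for 16 h, -0.581, lay just within the limit of 0.585. LTA4H was within the limit in all 5 treatments on the same-total scale, at -0.06, 0.35, 0.38, -0.34 and 0.55.

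**Figure D1:**
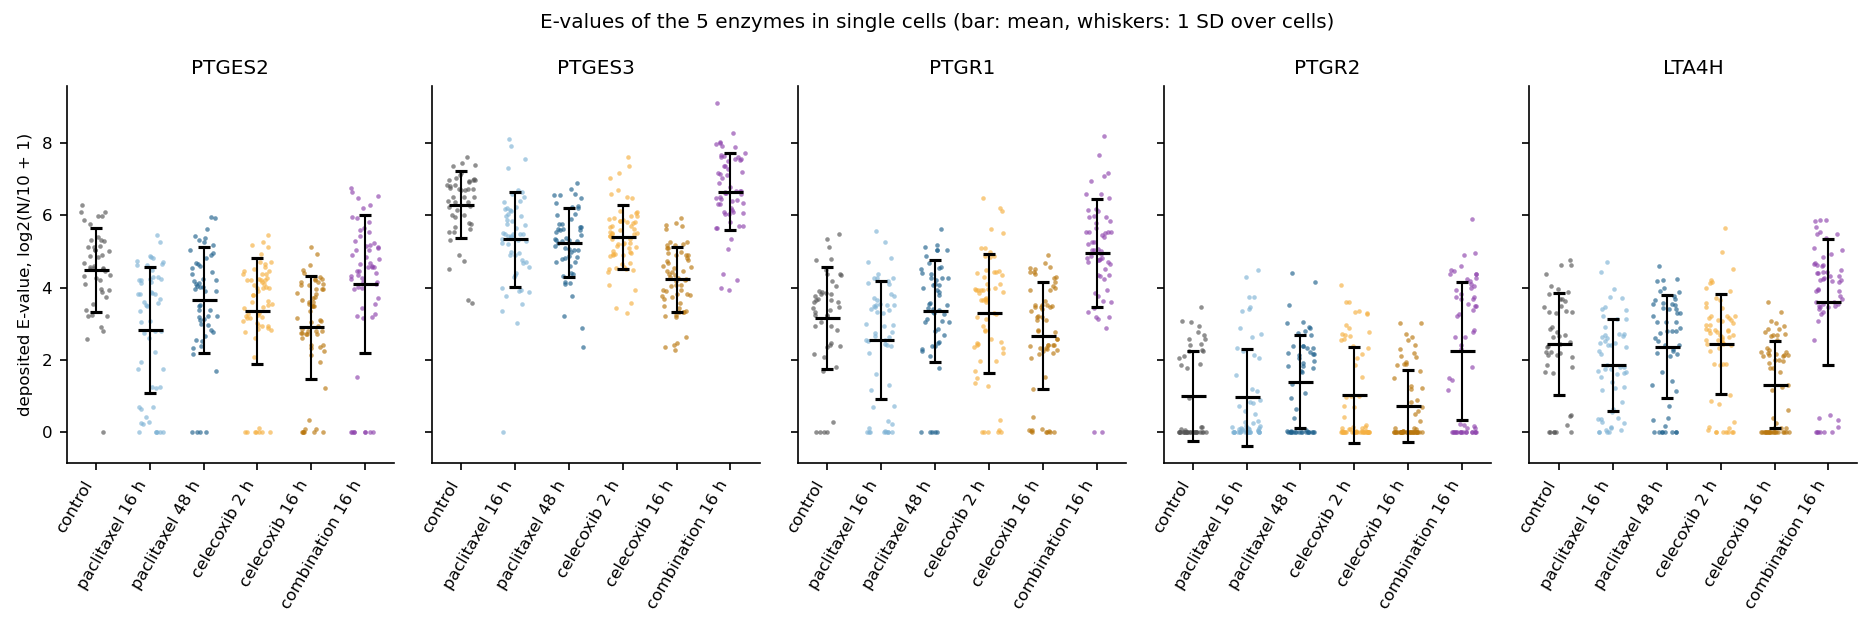
Deposited E-values (y axis, log2 of N/10 + 1) of PTGES2, PTGES3, PTGR1, PTGR2 and LTA4H in single cells of the 6 conditions (x axis), 1 point per cell, with a bar at the mean and whiskers of 1 SD over cells. PTGES3 is above 0 in all cells but 1, PTGR1 has its highest mean in the combination (4.96), and PTGR2 has many cells at or near 0.

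Ordered by mean E-value, the combination ranked first for PTGES3, PTGR1, PTGR2 and LTA4H and control first for PTGES2. Neighbours in these orders mostly lay within the spread of cells, since only 3 of 25 gaps exceeded the smaller SD of the pair. These were the gap between the combination and the next condition for PTGR1 (1.61), and for PTGES3 the gaps between control and celecoxib for 2 h (0.89) and between paclitaxel for 48 h and celecoxib for 16 h (1.01). On the same-total scale 0 of 25 gaps exceeded it.

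The counts were read against all 9655 genes on each scale. With paclitaxel for 16 h, 0 of 5 members were above and 3 of 5 (PTGES2, PTGES3 and PTGR1) below control past the limit, where 0.0932% and 37.3% of all genes were. At 48 h these were 0 and 2 of 5 (PTGES2 and PTGES3) against 0.922% and 26.6%. With celecoxib for 2 h, 0 members were above and 2 below (PTGES2 and PTGES3), against 1.12% and 25.7% of all genes. At 16 h 0 were above and 3 below (PTGES2, PTGES3 and LTA4H), against 0.383% and 43.9%. In the combination 3 were above (PTGR1, PTGR2 and LTA4H) and 0 below, against 30.4% and 1.76%. By the ratio of linear means 3 members were again above there, but so were 72.2% of all genes. The members' median difference was -0.62, -0.08, -0.02, -1.13 and 1.16 in these 5 treatments, beside -0.41, -0.26, -0.26, -0.48 and 0.33 for all genes. With the single drugs, the counts of members below the limit thus stood among many genes that were below it. With so few members, the counts describe these 5 genes and no wider group.

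On the same-total scale, where the median of all genes lay between -0.07 and 0.03, fewer members were past the limit. With paclitaxel for 16 h PTGES2 was below it and 0 members above it, against 10% of all genes below and 1.4% above. At 48 h PTGR1 and PTGR2 were above it and 0 below, against 3.28% above and 5.78% below. With celecoxib for 2 h 0 members were past it in either direction (3.31% of all genes above and 8.12% below), and PTGR1 at 0.579 and PTGES2 at -0.565 lay just within it. At 16 h PTGES3 was below it and 0 were above (7.95% of all genes below and 7.37% above). In the combination PTGR1 and PTGR2 were above and PTGES2 below, against 5.96% and 5.8% of all genes. The median over the members in the combination was 0.55, beside 0.02 for all genes.

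**Figure D2:**
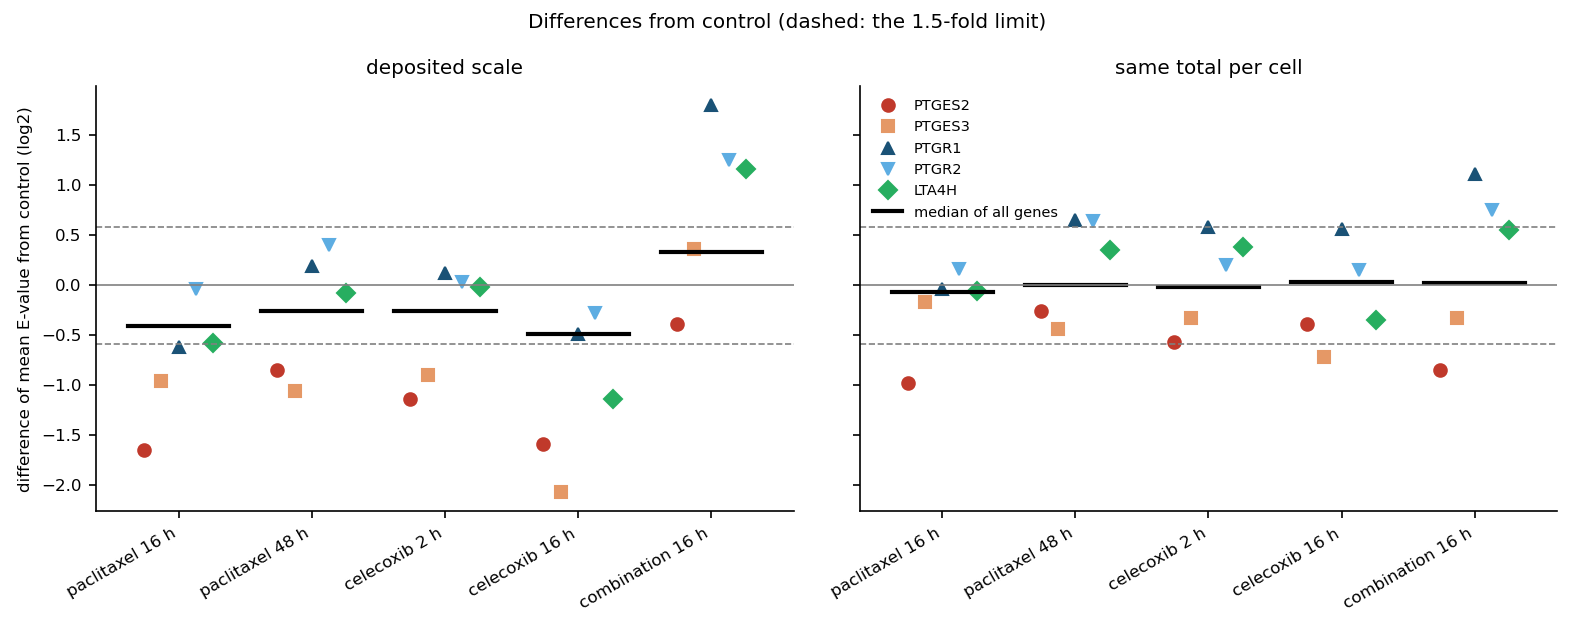
Difference of the mean E-value from control (y axis, log2) for the 5 enzymes in each treatment (x axis), on the deposited scale (left) and with the same total per cell (right). Black bars are the median of all 9655 genes and dashed lines the 1.5-fold limit; PTGR1 in the combination is at 1.80 on the left and 1.11 on the right, above the other members on both.

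All 5 differences share the same 46 control cells, so treatments were also set against each other. At 16 h the combination exceeded paclitaxel alone by 2.41 for PTGR1, 1.74 for LTA4H, 1.32 for PTGES3, 1.28 for PTGR2 and 1.26 for PTGES2 on the deposited scale, beside a median of 0.80 over all genes. At equal totals these differences were 1.15, 0.61, -0.16, 0.59 and 0.13. The combination exceeded celecoxib alone by 2.29 for PTGR1, 2.29 for LTA4H, 2.43 for PTGES3, 1.53 for PTGR2 and 1.20 for PTGES2, beside a median of 0.88, and by 0.55, 0.90, 0.39, 0.60 and -0.45 with the same total. PTGR1, PTGR2 and LTA4H were therefore higher in the combination than with either drug on both scales. Between 16 and 48 h of paclitaxel PTGES2 and PTGR1 each differed by 0.81, LTA4H by 0.50, PTGR2 by 0.43 and PTGES3 by -0.10 (48 h minus 16 h), beside a median of 0.11 over all genes. The same-total values were 0.72, 0.69, 0.41, 0.48 and -0.27, beside 0.07. Between 2 and 16 h of celecoxib PTGES3 differed by -1.17, LTA4H by -1.12, PTGR1 by -0.62, PTGES2 by -0.45 and PTGR2 by -0.31 (16 h minus 2 h), beside a median of -0.21 over all genes. With the same total these were -0.39, -0.73, -0.02, 0.17 and -0.06, beside 0.05, so that PTGES2 changed sign and PTGR1 and PTGR2 were close to 0.

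Some conditions shared an index block, which allowed values within a block. In block 1, the 34 combination cells exceeded the 56 cells with paclitaxel for 16 h by 2.40 for PTGR1, 1.36 for PTGR2 and 1.71 for LTA4H (same total 1.09, 0.59 and 0.56). In block 3, the 25 other combination cells exceeded the 61 cells with celecoxib for 16 h by 2.31, 1.43 and 2.32 (same total 0.64, 0.60 and 0.96). Higher values of these 3 genes in the combination were thus also found within a block. In block 4, the 31 cells with paclitaxel for 48 h differed from the 46 control cells by -0.41 for PTGES2, -0.93 for PTGES3, 0.50 for PTGR1, 0.51 for PTGR2 and 0.18 for LTA4H (same total 0.07, -0.44, 0.90, 0.72 and 0.53). PTGES2 at 48 h was thus within the limit inside that block. The 22 cells of block 2 differed from control by -1.46 for PTGES2, -1.24 for PTGES3, -0.26 for PTGR1, 0.24 for PTGR2 and -0.44 for LTA4H (same total -0.71, -0.44, 0.30, 0.54 and 0.09). On the deposited scale PTGR1 and LTA4H thus had opposite signs in the 2 blocks at 48 h. On the same-total scale PTGR1 and PTGR2 were past the limit in block 4 and within it in block 2, and PTGES2 was past it only in block 2. In the combination PTGR1 differed from control by 1.78 in block 1 and 1.81 in block 3, and PTGR2 by 1.32 and 1.15. What sets the blocks apart was not tested.

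The authors deposited a state for each cell, predicted from the same expression values, so splits by state are descriptions. With paclitaxel for 48 h, 28 cells were named control-like and 25 suppressive. Mean PTGR1 was 3.95 ± 0.90 in the first and 2.67 ± 1.59 in the second (SD over cells), differences of 0.79 and -0.49 from control. The study listed PTGR1 and PTGR2 for their rise in the control-like cells at 48 h, so their values there are not independent evidence. PTGES2 was 4.17 and 3.07, PTGES3 5.75 and 4.66, PTGR2 1.64 and 1.14, and LTA4H 2.62 and 2.10 in the 2 states. All 5 were higher in the control-like cells, whose median total was also higher (-0.34 against -1.07 on the log2 scale relative to control). Scaled to the same total, PTGR1 was 3.70 and 2.96, and LTA4H 2.40 and 2.42. With paclitaxel for 16 h PTGR1 was 3.01 in 23 control-like and 2.01 in 31 suppressive cells of the 56, and PTGES2 was 3.55 and 2.17. The median totals of these states were -0.46 and -1.33. Scaled to the same total, PTGR1 was 2.90 and 2.41, and PTGES2 3.42 and 2.60. With celecoxib for 2 h, in 26 control-like and 33 suppressive cells, PTGR1 was 3.52 and 2.87, and PTGES2 3.35 and 3.23. The same-total values there were 3.30 and 3.16 for PTGR1, and 3.17 and 3.55 for PTGES2.

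Setting a reductase against a synthase within the same cell cancels the scaling of that cell. N of PTGR1 exceeded N of PTGES2, both levels per length, in 7 of 45 control cells with either gene above 0, or 15.6% (exact 95% interval 6.49 to 29.5%, for counting error only). It did so in 22 of 56 (39.3%) and 20 of 51 cells (39.2%) with paclitaxel for 16 and 48 h, and in 25 of 62 (40.3%) and 21 of 59 (35.6%) with celecoxib for 2 and 16 h. With the combination it did so in 36 of 59 cells, or 61.0% (interval 47.4 to 73.5%). The share was thus lowest in control and highest in the combination, with the 4 single-drug conditions between. A cell with PTGES2 at 0 counted whenever PTGR1 was above 0, and likewise for LTA4H and PTGR2 against PTGES2 below. PTGES2 was at 0 in 1 of 46 control cells and in 8 of 59 with the combination. It was at 0 in 6 of 56 and 4 of 53 cells with paclitaxel for 16 and 48 h. With celecoxib for 2 and 16 h it was at 0 in 7 of 63 and 6 of 61 cells. How far the order rests on these cells was not tested. The ratio of the mean N of PTGR1 to that of PTGES2 was 0.424 in control, 0.770 and 0.773 with paclitaxel for 16 and 48 h, 1.16 and 0.889 with celecoxib for 2 and 16 h, and 1.62 with the combination. Against PTGES3, PTGR1 was the higher in 1 of 46 control cells (2.17%), in 3 of 56 and 3 of 53 with paclitaxel for 16 and 48 h (5.36% and 5.66%), in 3 of 63 and 7 of 61 with celecoxib for 2 and 16 h (4.76% and 11.5%), and in 7 of 59 with the combination (11.9%). LTA4H exceeded PTGES2 in 11.1% of control cells, in 32.7% and 20.8% with paclitaxel for 16 and 48 h, in 30.2% and 16.9% with celecoxib for 2 and 16 h, and in 37.9% with the combination. PTGR2 exceeded PTGES2 in 0 of 45 control cells, which allows a share of up to 7.87% (exact 95% interval), in 18.5% and 11.5% with paclitaxel for 16 and 48 h, in 14.5% and 14.0% with celecoxib for 2 and 16 h, and in 15.8% with the combination. Celecoxib for 16 h was close to the combination for PTGR1 against PTGES3, and paclitaxel for 16 h had the highest share for PTGR2 against PTGES2. These pairs were chosen after values had been seen, and no test was made on them.

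**Figure D3:**
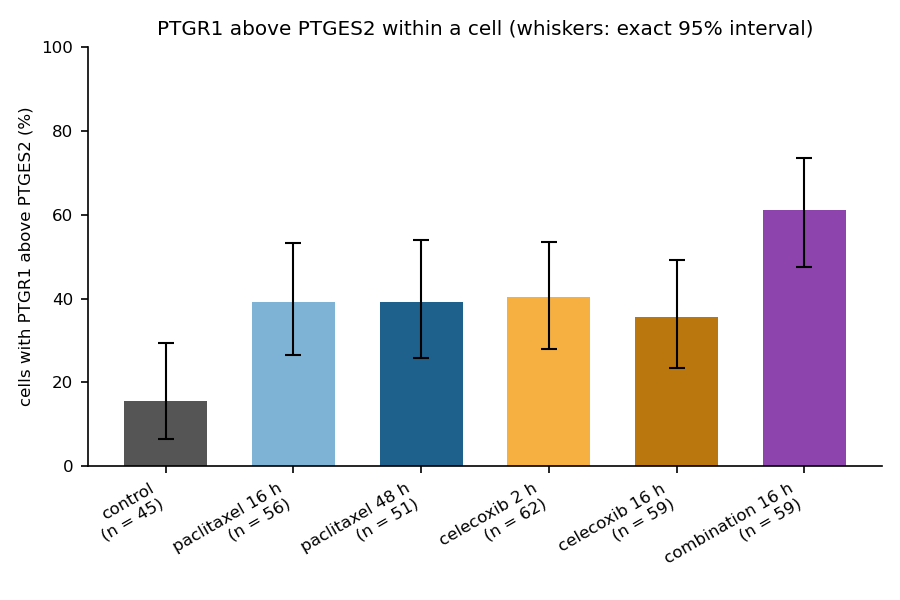
Share of cells (y axis, percent) in which N of PTGR1 exceeded N of PTGES2, among the cells with either above 0, in each condition (x axis, n below the name), with exact 95% binomial intervals as whiskers. The share is 15.6% in control, between 35.6% and 40.3% with the single drugs, and 61.0% with the combination. Cells with PTGES2 at 0 and PTGR1 above 0 are counted in the share.

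Within a condition, PTGES3 followed the total of the cell. Pearson's r between its E-value and log2 of the total was between 0.63 and 0.78 over the cells of a condition (46 to 63 cells), while for LTA4H it was between 0.14 and 0.37. For PTGES2 r was 0.79 in control, 0.52 and 0.53 with paclitaxel for 16 and 48 h, and 0.18 in the combination. With celecoxib for 2 and 16 h the r of PTGES2 was 0.14 and 0.24. For PTGR1 r ran from 0.29 to 0.65 (the latter with paclitaxel for 48 h, where PTGES3 had 0.63), and for PTGR2 from 0.15 to 0.55. The E-value and the total of a cell share the spike-in scaling. The members had low r with each other from cell to cell, and the many values at or near 0 limit what r can show. Over the 10 pairs and 338 cells, each value centred on its condition, r was between -0.10 and 0.08 with the same total per cell and between 0.02 and 0.29 on the deposited scale. The genes with the most similar pattern over the 338 cells, same total per cell and centred on the condition, were sought among 8719 genes. For PTGES3 they were RAN (r = 0.47), CALM2 (0.45) and SNRPG (0.45). The others were weaker, with EIF4EBP1 (0.30), SLC3A2 (0.26) and XBP1 (0.25) for PTGES2, NBDY (0.28), PRAME (0.27) and TIMP1 (0.25) for PTGR1, ZMYM1 (0.24), NDUFS1 (0.22) and WSB1 (0.21) for PTGR2, and UNC13B (0.21), TMEM184C (0.21) and BAZ2B (0.20) for LTA4H. On the deposited scale 2 of the 3 were again found for PTGES3, 2 for PTGR2, 1 for PTGES2 and 0 for PTGR1 and LTA4H.

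The rest of the pathway was taken from 5 lists of other eicosanoid genes, of which 18 of 53 were analysed. On the deposited scale 0 were above control past the limit with any single drug, and 6, 3, 1 and 7 were below it with paclitaxel for 16 and 48 h and celecoxib for 2 and 16 h, where 37.3%, 26.6%, 25.7% and 43.9% of all genes were. In the combination 7 were above and 1 below, where 30.4% and 1.76% of all genes were. With a detection filter of 50%, 4 of 12 list genes were above control past the limit there, against 36.0% of all genes. These counts moved with the measure. By the ratio of linear means 2, 5, 2 and 1 of 18 were above it with the single drugs, in the same order. Of all genes 3.15%, 7.35%, 7.34% and 2.76% were. Below it were 8, 6, 3 and 14, beside 59.7%, 44.0%, 39.1% and 76.0% of all genes. In the combination 15 were above and 0 below by that ratio, against 72.2% and 1.34%. At equal totals 4 values in all were past the limit, 2 of PLA2G4C above it and 2 of ZADH2 below it. The median difference of the 18 genes in the combination was 0.39, beside 0.33 for all genes.

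Of the genes for arachidonate release and recycling, 8 of 14 were analysed. PLA2G4C, a cytosolic phospholipase A2 of the kind that frees fatty acids from membranes, was above 0 in 8 of 46 control cells (17.4%) and in 26 of 59 with the combination (44.1%). Its mean E-value was 0.12 ± 0.29 in control and 1.32 ± 1.86 with the combination (SD over cells), a difference of 1.20. Scaled to the same total, PLA2G4C differed by 0.16 and 0.39 with paclitaxel for 16 and 48 h, 0.44 and 0.66 with celecoxib for 2 and 16 h, and 0.79 with the combination. ACSL3, an acyl-CoA synthetase, differed by 0.69 with the combination and by 0.13 with the same total. LPCAT3, which returns arachidonate to phospholipids, differed by -0.61 with the combination, the only value of the 18 genes below the limit there, and by -0.52 with the same total. The 4 genes below the limit with paclitaxel or celecoxib for 16 h were PLAA (-0.86 and -0.99), MBOAT7 (-0.60 and -0.67), LPCAT3 (-0.70 with paclitaxel) and ACSL3 (-0.96 with celecoxib).

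Among the other prostanoid synthases 2 of 8 were analysed. AKR1B1, an aldose reductase that can form prostaglandin F2alpha, was above 0 in 46 of 46 control cells with a mean of 5.72. It differed by -1.03 and -0.80 with paclitaxel for 16 and 48 h, by -0.45 and -1.37 with celecoxib for 2 and 16 h and by 0.83 with the combination. With the same total per cell these were -0.25, -0.20, 0.11, -0.02 and 0.15, all within the limit. PTGDS, a prostaglandin D synthase, was above 0 in 7 of 46 control cells and in 22 of 59 with the combination, a difference in mean of 0.70 (same total 0.42). For breakdown and transport 3 of 7 were analysed. ZADH2, a further reductase of keto-prostaglandins, differed by -0.78 and -0.62 with paclitaxel for 16 and 48 h, -1.04 and -1.42 with celecoxib for 2 and 16 h and -0.04 with the combination. At the same total its differences were -0.30, -0.25, -0.67, -0.60 and -0.47, where PTGR1 had -0.04, 0.65, 0.58, 0.56 and 1.11. These reductases thus lay on opposite sides of control in 4 of 5 treatments on that scale. CBR4, a carbonyl reductase, differed by -0.97 with celecoxib for 16 h and 0.63 with the combination (same total -0.43 and 0.21), and the exporter ABCC4 stayed within the limit throughout.

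Of 10 genes listed for prostanoid receptors, TBXA2R, the thromboxane receptor, and PTGFRN, an inhibitor of the prostaglandin F2 receptor, were analysed. Both stayed within the limit in all 5 treatments on both scales. Of 14 other lipoxygenase and leukotriene genes 3 were analysed. MGST3, a microsomal glutathione transferase, differed by -0.72 with paclitaxel for 16 h, -1.72 with celecoxib for 16 h and 0.74 with the combination, and by 0.06, -0.42 and 0.06 with the same total. GGT1, which trims glutathione conjugates such as leukotriene C4, differed by 0.74 with the combination (same total 0.38), and EPHX1, an epoxide hydrolase, by 0.42 (same total 0.18).

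**Figure D4:**
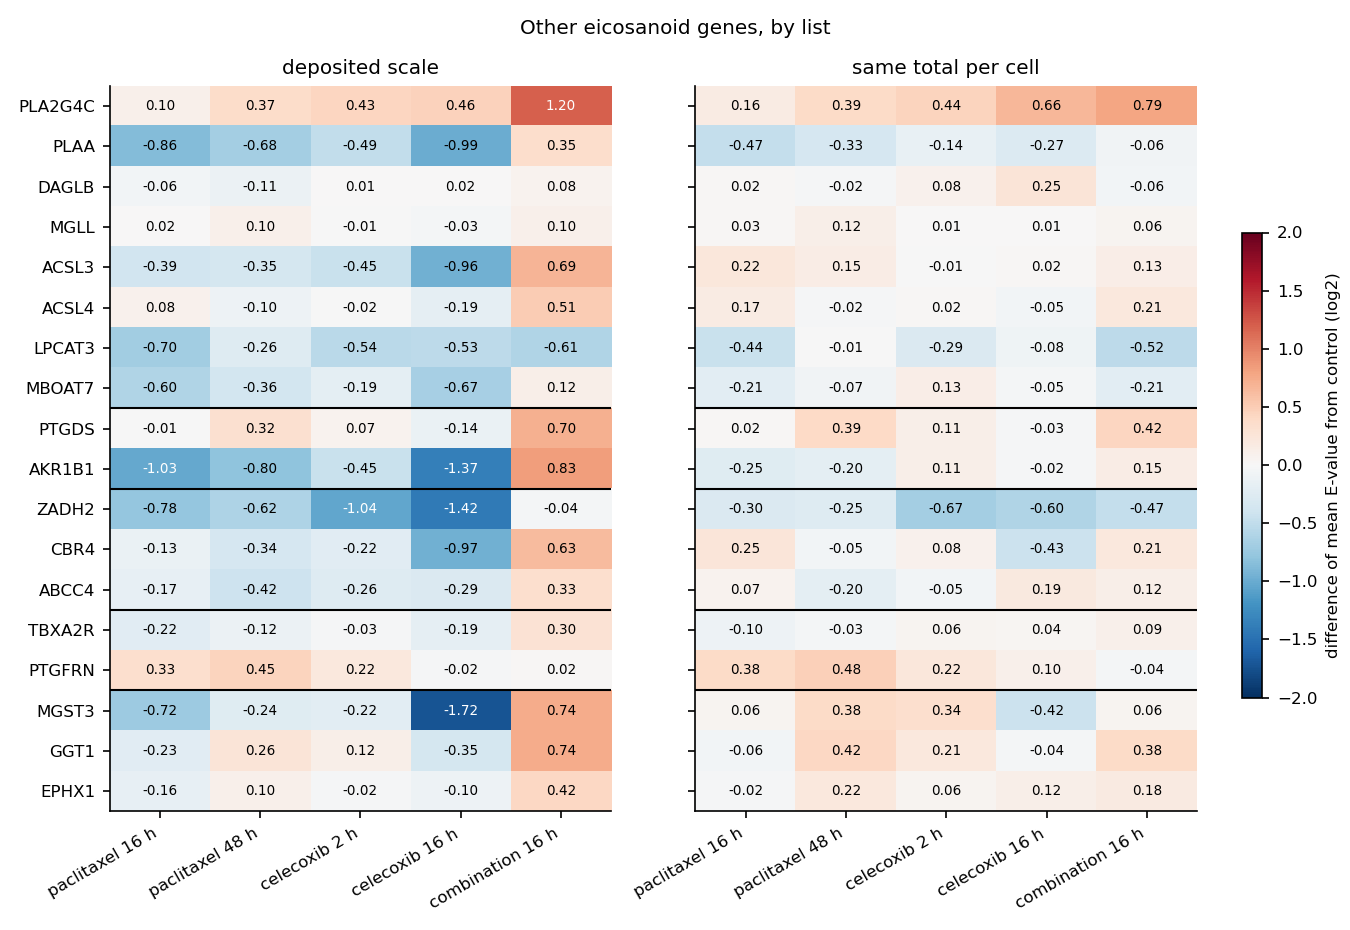
Difference of the mean E-value from control (colour and printed value, log2) for the 18 other eicosanoid genes (rows, with lines between the 5 lists) in each treatment (columns), on the deposited scale (left) and with the same total per cell (right). PLA2G4C is highest in the combination on both sides (1.20 and 0.79), and ZADH2 is below 0 in every column.

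PTGES3 was set beside HSP90 and the co-chaperones it works with, all 9 of which were analysed. On the deposited scale 9, 7, 8 and 9 of 9 were below control past the limit with paclitaxel for 16 and 48 h and celecoxib for 2 and 16 h, where 37.3%, 26.6%, 25.7% and 43.9% of all genes were, and 0 of 9 with the combination (1.76% of all genes). Their median differences were -1.08, -1.22, -1.15, -1.81 and 0.22, where PTGES3 had -0.96, -1.06, -0.89, -2.07 and 0.36. With the same total per cell 3, 5, 4, 5 and 1 of 9 were below the limit, where 10%, 5.78%, 8.12%, 7.95% and 5.8% of all genes were, with medians of -0.36, -0.59, -0.58, -0.68 and -0.32. HSP90AA1, a cytosolic HSP90, differed by -2.26 with celecoxib for 16 h (same total -0.89), and AHSA1, an activator of its ATPase, by -2.07 (same total -0.72). HSPA8, the constitutive HSP70, was the 1 gene below the limit with the combination on the same-total scale (-1.14). FKBP5, an HSP90-bound immunophilin, differed by 1.03 with the combination on the deposited scale and by 0.45 on the other.

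PTGR1 is also known as a target of NRF2, and 14 other NRF2 targets were analysed, 14 of 14. On the deposited scale 11, 10, 7 and 10 of 14 were below control past the limit with paclitaxel for 16 and 48 h and celecoxib for 2 and 16 h, and 6 were above it with the combination, beside the same shares of all genes as for HSP90 and 30.4% above in the combination. With the same total per cell 2, 1, 4 and 3 of 14 were below it with the single drugs in that order. Of all genes 10%, 5.78%, 8.12% and 7.95% were. Above it were 0, 0, 1 and 1, beside 1.4%, 3.28%, 3.31% and 7.37% of all genes. In the combination 1 of 14 was above it and 1 below (5.96% and 5.8% of all genes). The median difference there was -0.11, beside 1.11 for PTGR1. The gene above it was SLC7A11, the cystine transporter, at 0.71, which was also above it with celecoxib for 2 h (1.17) and 16 h (1.54). NQO1, a quinone reductase, was at 0.22 and TXNRD1, thioredoxin reductase, at -0.29 with the combination on that scale. On the same scale GCLM, a subunit of the enzyme that starts glutathione synthesis, was between -0.58 and -0.90 in all 5 treatments, past the limit in 4 of them.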

How the data were processed

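A2780 cells of 6 conditions were captured on the Fluidigm C1 system, with full-length Smart-seq2 libraries of single cells. Per the labels and the methods of the study, the authors used Trim Galore for adapters, then RSEM 1.3.0 with Bowtie2 for TPM against GENCODE transcripts (hg38) and spike-in RNAs. They divided the TPM of each cell by that of its most abundant spike-in RNA, left out cells with low housekeeping genes, and filtered out genes seen in no more than 30% of cells in every condition. What they deposited is log2 of (N/10 + 1), the E-value, used here unchanged.

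N was recovered as 10 × (2 to the power E, minus 1), summed per cell, and rescaled to the median total for the same-total scale. Mean E-values per condition were compared with control for all genes. No p-value was computed, since each condition is 1 sample. Intervals are exact Clopper-Pearson at 95%. The depth in reads is unknown, and 0 columns of cells were left unmapped. Control cells drawn again with known changes were used to test the scripts. Doublets were not called, for lack of counts.

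The members and lists were chosen with earlier results of these data known. Named genes are the members, the analysed genes of the lists, and the 3 genes with the highest Pearson's r to each member among genes above 0 in at least 30% of all cells. Marker lists (8 epithelial and carcinoma genes, 8 of other cell types) only describe the line. Alternatives were the same total, the log2 ratio of mean N, a pseudocount of 1, single index blocks, no well noted as empty, no filter or a 50% detection limit, and a total without the 50 most abundant genes. The median over cells and the comparisons by block on both scales were added after seeing the data. Scripts ran in Python 3.11.15 with scipy 1.17.1, pandas 2.3.3, numpy 2.4.6 and matplotlib 3.10.9.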

Additional observations from a re-analysis of the deposited data

How the results depend on the processing

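The counts of members past the limit depended mainly on the scaling. With the same total per cell, the number below it was 1 of 5 with paclitaxel for 16 h, 0 with paclitaxel for 48 h, 0 with celecoxib for 2 h, 1 with celecoxib for 16 h and 1 with the combination, and the number above it was 2 with paclitaxel for 48 h. For paclitaxel for 48 h, 1 member was above it by a ratio of linear means, 1 with a pseudocount of 1 and 1 by the median over cells, and 1 was below it in index block 4 alone. With a pseudocount of 1, 1 was below it with the combination. The shares of all genes moved too. By the ratio of linear means 59.7% and 44.0% were below the limit with paclitaxel for 16 and 48 h, beside 3 and 2 members. With celecoxib for 2 and 16 h 39.1% and 76.0% were, beside 2 and 4 members. In the combination 72.2% of all genes were above it, beside 3 members. Of 25 single member values, 13 kept their side of the limit with the same total per cell, 21 with linear means, 21 with a pseudocount of 1 and 22 with medians. The detection filters could not move these values, since they only choose which genes are kept and all 5 members pass both. No member past the limit came out past it in the other direction under any of these alternatives. Leaving the 50 most abundant genes out of the total moved no r by more than 0.019. Without the well noted as empty, all 5 combination values kept their side. No paired analysis was possible because the numbers in the labels only name cells and no result comes from a test. The unknown read depth limits PTGR2 most, where many cells lie near 0.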
